A study of Homo sapiens with 6 samples.

Results

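The nuclear genes for the subunits of the 5 oxidative phosphorylation complexes were followed in MDA-MB-231 cells, a human triple negative breast cancer line, after silencing of RNF31. Members were taken by gene symbol: the NDUFA, NDUFB, NDUFC, NDUFS and NDUFV genes of complex I, SDHA to SDHD of complex II, the UQCR genes of complex III, the COX4 to COX8 genes of complex IV and the ATP5 genes of complex V. The rule took 88 of the 17645 genes listed in every library, 37 for complex I, 4 for complex II, 9 for complex III, 18 for complex IV and 20 for complex V. NDUFA4 and its paralog NDUFA4L2 carry complex I names but are counted here with complex IV, where the NDUFA4 protein is found. The symbol rule does not reach NDUFAB1 of complex I or CYC1 of complex III, which are given separately. No gene with a symbol starting with MT-, the prefix of the mitochondrial genome, was listed, and its transcripts were not analysed here.

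The groups were 3 siRNF31 libraries, from cells transfected with siRNA against RNF31, and 3 siControl libraries, from cells transfected with a control siRNA, all of the same line in the same serum-containing medium and taken 48 h after transfection. The labels do not say how many siRNAs were used or whether the replicates were separate cultures, so the spread that p-values rest on may be technical, and they cover no more than these libraries. RNF31, the ubiquitin ligase at the heart of LUBAC, the complex that joins ubiquitin into linear chains, measured 1.92, 2.12 and 1.86 FPKM in siRNF31, against 11.3, 10.7 and 10.6 FPKM in siControl. All siRNF31 libraries lay below all siControl libraries, and 18.1% of the mean level was left (limma log2 fold change -2.0, SE 0.0666, adjusted p = 1.29e-07). FPKM, fragment counts divided by transcript length and library total, is a relative unit, and the depth behind each value is unknown.

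Oxidative phosphorylation takes electrons from NADH at complex I and from succinate at complex II, passes them through coenzyme Q, complex III and cytochrome c to oxygen at complex IV, and uses the proton gradient so built to make ATP at complex V. Each complex other than complex II mixes subunits made in the cytosol from nuclear genes with subunits encoded in mitochondrial DNA. The transcription factors NRF1, GABP (of the ETS family) and YY1 and coactivators of the PGC-1 family are known to act on many of the nuclear subunit genes.

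The line markers VIM, CD44, AXL and CAV1 averaged between 313 and 3362 FPKM. Of 7 luminal markers only ERBB2, at 7.75 FPKM, averaged above 1 FPKM. The 2 blood markers listed, PTPRC and CD14, averaged below 1 FPKM and endothelial markers at most 1.03 FPKM. The fibroblast markers COL1A1, COL3A1 and PDGFRB were present as well, averaging 859, 266 and 16.3 FPKM. These lists alone therefore do not settle the identity of the cells, which is taken from the labels. The fibroblast sum ran from 993 to 1020 FPKM in siRNF31 and from 1260 to 1312 FPKM in siControl. The part of this difference in the results was not tested. Libraries of the same group correlated at 0.993 to 0.998 (Pearson, log2 values) and libraries of different groups at 0.941 to 0.948. A library from each group stood apart from its replicates. Along the first principal component (89% of variance) the groups parted, and the second, with 7.18%, set siRNF31 replicate 3 and siControl replicate 1 apart from the other 4 libraries.

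The subunit genes moved with that second axis. siRNF31 replicate 3 was the highest siRNF31 library for 73 of 81 tested subunit genes, by a median of 0.17 on the log2 scale, against 45.5% of all tested genes. siControl replicate 1 was the highest siControl library for 78 of the 81, by a median of 0.20, against 44.8% of all tested genes. The median standard deviation within groups was 0.123 for the subunit genes and 0.092 for all tested genes. Cytosolic ribosomal protein genes did the same, with these libraries highest in their groups for 77 of 77 genes in both groups. The part of this shared shift in the results was not tested directly. For that reason results are also given without both libraries, and as ratios between subunit genes of the same library, which cancel a shift common to both genes.

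Of the 88 subunit genes, 81 reached 1 FPKM in at least 3 of the 6 libraries and were tested together with all other such genes, 11346 in all. With siRNF31, 29 subunit genes fell and 6 rose, and 46 were not called at an adjusted p of 0.05. In all, 43.2% of tested subunit genes were called, against 63.1% of all tested genes. The lower calls made up 35.8%, against 36.5% of all tested genes, and the higher calls 7.41%, against 26.6%. With all 6 libraries and the values as deposited, the share that fell was thus near that of all genes, but this depended on the setting. With scaling to a common sum, 47 of the 81 were lower, against 38% of all tested genes. Without siRNF31 replicate 1, 20 of the 81 were lower, against 32.8%. In the main analysis the median log2 fold change was -0.18 for the subunit genes and -0.06 for all tested genes, and 62 of 81 fold changes were below 0. Groups were fully separated for 42% of the tested subunit genes, 28 with siRNF31 lower and 6 with siRNF31 higher, against 67.2% of all tested genes.

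Most of the changes were small. Called falls of at least 1.5-fold in mean FPKM were found for 4 subunit genes, UQCRQ, SDHC, NDUFV2 and UQCR11, while 16.1% of all tested genes fell by that much. No subunit gene had a called rise of that size, against 12.7% of all tested genes. Without siRNF31 replicate 3 and siControl replicate 1, 43 subunit genes were lower and 10 higher, 65.4% of those tested, against 69.8% of all tested genes. The 43 of 81 that were lower compare with 39.8% of all tested genes lower without that pair, so there the falls were more frequent among subunit genes. All 29 falls and all 6 rises named above were among the calls made without that pair. This pair was chosen after seeing the data, and leaving out the libraries that stood apart narrows the groups, so the kept calls are no independent support. With 1 library left out instead, from 20 to 41 of the 81 subunit genes were lower. The 20, without siRNF31 replicate 1, compare with 32.8% of all tested genes, and the 41, without siRNF31 replicate 3, with 36.4%. Since FPKM come from bulk RNA, a lower share of cells that express a gene and less RNA per cell cannot be told apart.

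**Figure D1:**
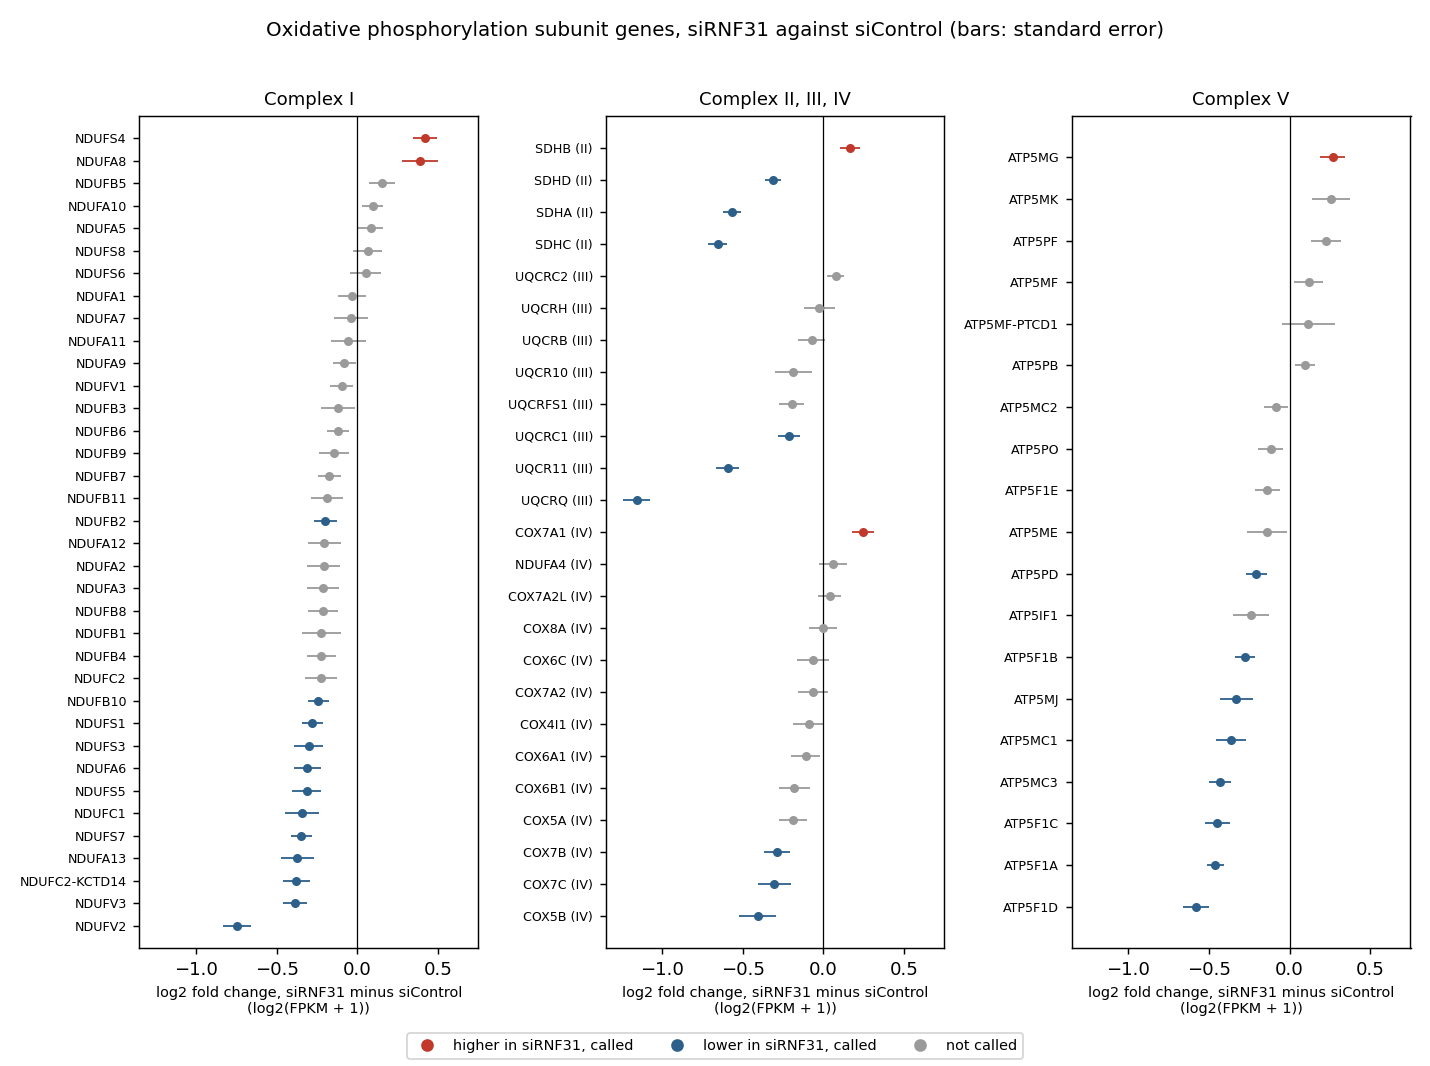
Log2 fold change, siRNF31 minus siControl on the log2(FPKM + 1) scale, of 80 tested subunit genes, with complex I at the left, complexes II to IV in the middle and complex V at the right. Bars are standard errors from limma, red points were called higher and blue points called lower at an adjusted p of 0.05; UQCRQ lies lowest at -1.16, and NDUFS4 lies at 0.42.

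Complex I, the NADH dehydrogenase, had 12 genes lower, 3 higher and 22 not called among 37 tested, with a median log2 fold change of -0.20. The 32.4% that fell and the 8.11% that rose compare with 36.5% and 26.6% of all tested genes. The N-module, which oxidizes NADH, held the largest fall of the complex, in NDUFV2, an iron-sulfur subunit. NDUFV2 measured 45.6, 47.8 and 54.6 FPKM in siRNF31, against 89.9, 83.1 and 76.7 FPKM in siControl. The groups did not overlap, and 59.2% of the mean was left (log2 fold change -0.74, SE 0.084, adjusted p = 8.8e-05). NDUFS1, another iron-sulfur core subunit of the module, fell as well, to 81% of the siControl mean (log2 fold change -0.28). NDUFV1, which binds NADH and its flavin, kept 93.5% of its mean and was not called (95% interval of the log2 fold change -0.26 to 0.07). Within each library, the ratio of NDUFV2 to NDUFV1 was 0.546, 0.578 and 0.580 in siRNF31, against 0.907, 0.901 and 0.882 in siControl. This ratio cancels a shift common to both genes. It was picked after the values were seen and mainly carries the fall of NDUFV2, so its separation is no independent support.

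In the Q-module, which hands the electrons to coenzyme Q, the core subunit genes NDUFS3 and NDUFS7 fell, to 80.6% and 78.5% of their siControl means (log2 fold changes -0.30 and -0.35, adjusted p = 0.0173 and 0.00167). NDUFS8 was not called (95% interval -0.14 to 0.27). The fall of NDUFS3 lost its call without siRNF31 replicate 1, without siRNF31 replicate 2 or without siControl replicate 2.

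Accessory subunits surround the core, and 7 of their genes fell, 5 of 18 outside the distal membrane arm and 2 of 11 within it. These shares, 27.8% and 18.2%, were below the 36.5% of all tested genes that fell. NDUFA13, also known as an inhibitor of STAT signalling, measured 113.5, 119.8 and 144.5 FPKM in siRNF31, against 176.2, 164.1 and 147.9 FPKM in siControl. Every siRNF31 value was the lower, with the highest of them near the lowest siControl value (log2 fold change -0.37, SE 0.101, adjusted p = 0.0114). NDUFV3, an accessory subunit of the N-module, measured 7.49, 7.47 and 8.27 FPKM in siRNF31, against 10.6, 11.2 and 9.60 FPKM in siControl (log2 fold change -0.39, adjusted p = 0.00177). NDUFA6, NDUFC1 and NDUFS5 also fell, with log2 fold changes of -0.31, -0.34 and -0.31. The readthrough locus NDUFC2-KCTD14, which shares reads with NDUFC2, measured 21.8, 17.5 and 19.9 FPKM in siRNF31, against 26.7, 26.6 and 24.3 FPKM in siControl. Its fall and the value of NDUFC2 itself are uncertain for that reason. Of the 11 NDUFB genes, whose products lie in the distal membrane arm, NDUFB2 and NDUFB10 fell and 9 were not called, although 10 had fold changes below 0. NDUFB9, the most abundant gene of the complex, measured 292.4, 283.4 and 333.6 FPKM in siRNF31, against 371.4, 330.7 and 304.0 FPKM in siControl, and these values overlapped.

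A pair of accessory genes rose. NDUFS4, needed for a stable N-module, measured 58.8, 55.1 and 65.2 FPKM in siRNF31, against 47.7, 42.3 and 42.9 FPKM in siControl. The groups did not overlap (log2 fold change 0.42, SE 0.0765, adjusted p = 0.00141). NDUFA8 measured 32.2, 34.6 and 42.4 FPKM in siRNF31, against 31.1, 26.4 and 24.9 FPKM in siControl (log2 fold change 0.39, SE 0.113, adjusted p = 0.0155). Its groups were separated by little, and the call was lost without siControl replicate 2. The promoter of NDUFS4, whose rise held in all 15 alternative settings, is shown from 250 bases before to 50 after its RefSeq start (GRCh38.p14, chr5:53560389-53560688, plus strand), with a match to the YY1 motif in capitals.
NDUFS4: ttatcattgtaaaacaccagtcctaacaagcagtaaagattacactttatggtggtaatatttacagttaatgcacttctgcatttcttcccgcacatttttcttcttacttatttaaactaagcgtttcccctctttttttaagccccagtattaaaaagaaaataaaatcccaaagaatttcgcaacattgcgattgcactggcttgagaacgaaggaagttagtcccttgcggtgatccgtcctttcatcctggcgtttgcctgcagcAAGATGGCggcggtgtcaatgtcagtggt

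Complex II, succinate dehydrogenase, was the complex in which every gene was called, against 63.1% of all tested genes. Its 4 genes did not move together. SDHA, the flavoprotein that oxidizes succinate, measured 56.9, 57.1 and 59.6 FPKM in siRNF31, against 90.0, 85.6 and 83.1 FPKM in siControl. The groups lay far apart relative to their spread, with 67.1% of the mean left (log2 fold change -0.57, SE 0.0544, adjusted p = 3.41e-05). The membrane anchors, which hold the enzyme in the inner membrane and help bind coenzyme Q, fell too. SDHC measured 30.6, 32.4 and 33.7 FPKM in siRNF31, against 53.1, 51.4 and 49.6 FPKM in siControl (log2 fold change -0.66, SE 0.0571, adjusted p = 1.93e-05). SDHD measured 61.0, 58.4 and 60.9 FPKM in siRNF31, against 74.99, 75.8 and 73.6 FPKM in siControl (log2 fold change -0.31, SE 0.0499, adjusted p = 0.000691). Neither pair of groups overlapped, and 62.8% of the SDHC mean and 80.4% of the SDHD mean were left.

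SDHB, the iron-sulfur subunit that links SDHA to the anchors, did not fall. It measured 94.95, 95.8 and 103.5 FPKM in siRNF31, against 92.5, 86.4 and 83.1 FPKM in siControl. All siRNF31 values were the higher, by a small margin, and the mean stood at 112.3% of siControl (log2 fold change 0.17, SE 0.0627, 95% interval 0.02 to 0.31, adjusted p = 0.0464). This call was lost in 8 of 15 alternative settings, among them without siRNF31 replicate 1, 2 or 3 and without siControl replicate 2 or 3. Ratios within each library, picked after the values were seen, mainly carry the falls of SDHA and SDHC. The ratio of SDHB to SDHA was 1.67, 1.68 and 1.74 in siRNF31, against 1.03, 1.01 and 1.00 in siControl, and that of SDHB to SDHC was 3.10, 2.96 and 3.07 in siRNF31, against 1.74, 1.68 and 1.68 in siControl. In siControl the SDHA and SDHB transcripts were thus at about equal levels per length, and in siRNF31 they were not. SDHA, SDHC and SDHD have pseudogenes, and how reads shared with such copies were assigned is not given in the sources used here.

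Promoters of SDHD, which fell, and SDHB, which did not, are shown over the same window in GRCh38.p14 (chr11:112086623-112086922, plus strand, for SDHD and chr1:17053983-17054282, minus strand, for SDHB). Capitals mark matches to the motifs searched. In SDHD these are overlapping NRF1 matches that begin 110 and 108 bases before the start and an ETS match 78 bases before it, and in SDHB they are a match to NRF1, one to SP1 and, 10 bases after the start, one to YY1.
SDHD: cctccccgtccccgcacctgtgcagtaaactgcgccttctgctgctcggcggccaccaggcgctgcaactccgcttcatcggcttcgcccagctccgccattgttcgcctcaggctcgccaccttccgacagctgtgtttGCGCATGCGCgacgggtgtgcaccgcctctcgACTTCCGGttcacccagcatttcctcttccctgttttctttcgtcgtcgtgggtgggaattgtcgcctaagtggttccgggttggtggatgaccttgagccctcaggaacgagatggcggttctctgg
SDHB: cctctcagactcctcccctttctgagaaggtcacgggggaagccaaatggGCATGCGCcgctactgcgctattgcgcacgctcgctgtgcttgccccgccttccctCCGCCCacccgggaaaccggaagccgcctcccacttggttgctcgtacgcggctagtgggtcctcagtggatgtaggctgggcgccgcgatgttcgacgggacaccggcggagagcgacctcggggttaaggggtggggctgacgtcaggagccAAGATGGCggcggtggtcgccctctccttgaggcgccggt

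**Figure D2:**
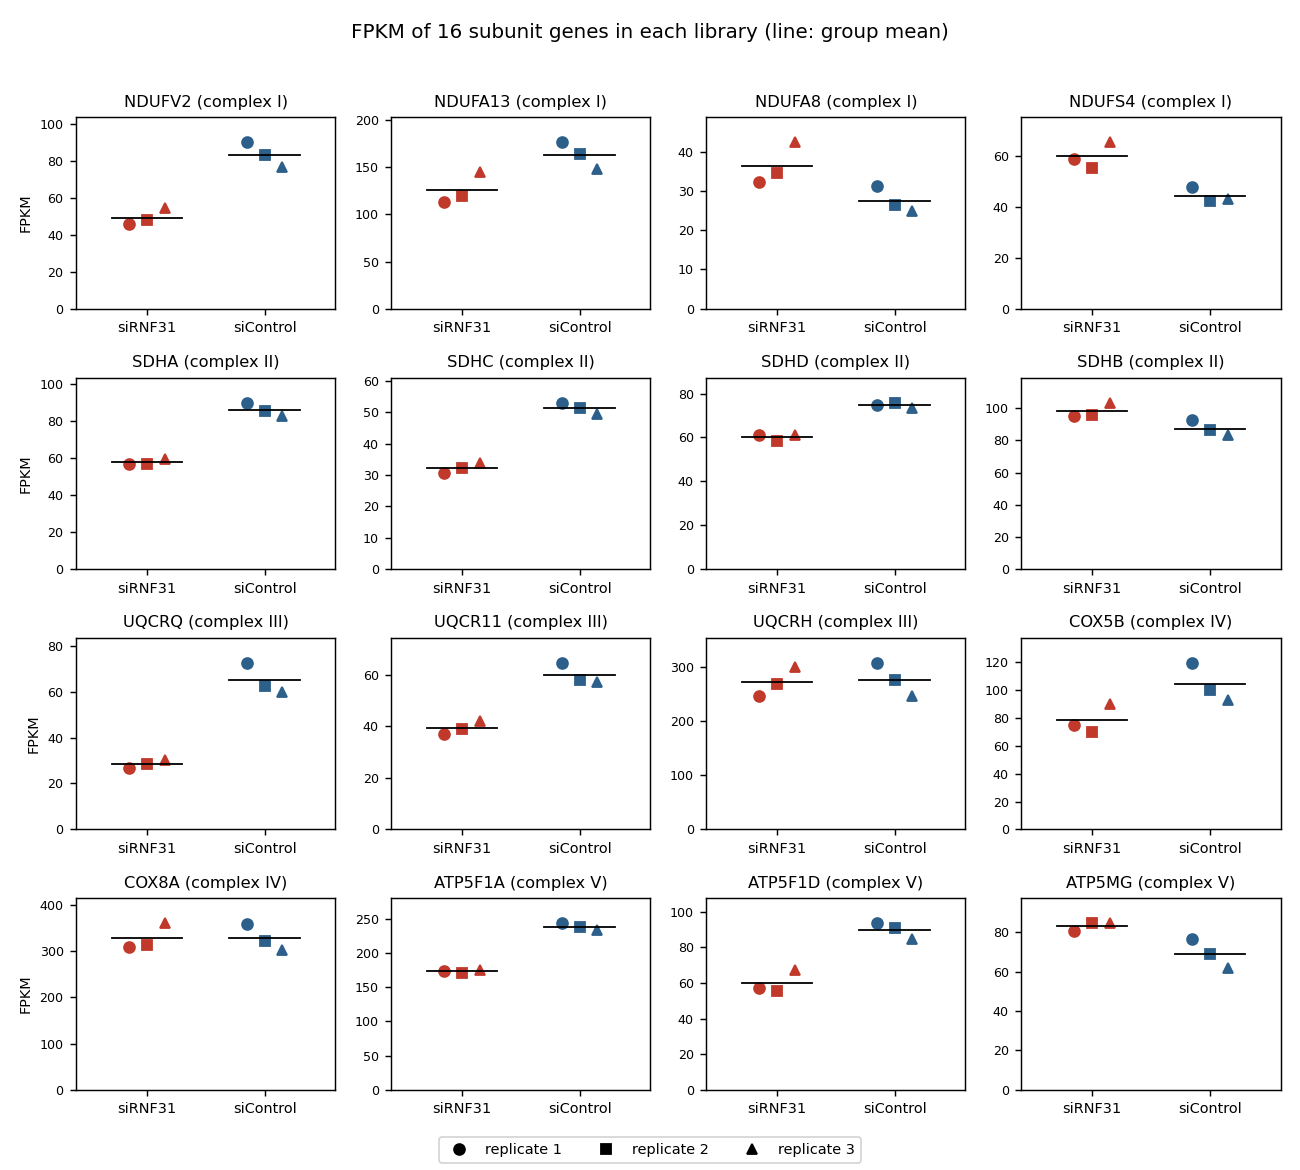
FPKM of 16 subunit genes in each library, with siRNF31 (red) left of siControl (blue), a linear axis from 0 in each panel, and a line at each group mean. Circles, squares and triangles are replicates 1, 2 and 3; SDHA, SDHC and UQCRQ separate the groups widely, SDHB, NDUFA8, NDUFS4 and ATP5MG lie higher in siRNF31, and COX8A and UQCRH overlap.

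Complex III, which passes electrons from coenzyme Q to cytochrome c, had 3 genes lower, none higher and 5 not called among 8 tested. The 37.5% that fell was near the 36.5% of all tested genes, of which 26.6% rose. UQCRQ, a small accessory subunit that contacts cytochrome b, had the largest change of all the subunit genes. It measured 26.6, 28.5 and 30.4 FPKM in siRNF31, against 72.4, 62.3 and 60.0 FPKM in siControl. The highest siRNF31 value was well below the lowest siControl value, and 43.9% of the mean was left (log2 fold change -1.16, SE 0.0818, adjusted p = 5.6e-06). UQCR11, another small subunit, measured 36.9, 39.0 and 42.2 FPKM in siRNF31, against 64.5, 58.0 and 57.0 FPKM in siControl, also without overlap (log2 fold change -0.59, SE 0.0708, adjusted p = 0.000125). Both calls held in all 15 alternative settings.

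The core of the complex changed less. UQCRC1 measured 117.1, 112.3 and 125.4 FPKM in siRNF31, against 147.2, 135.5 and 129.0 FPKM in siControl (log2 fold change -0.21, adjusted p = 0.0254). That call was lost in 6 of the 15 alternative settings, among them without replicate 1 or 2 of either group. Its partner core protein gene UQCRC2 stood at 105.5% of siControl (95% interval of the log2 fold change -0.04 to 0.20), and UQCRFS1, the Rieske iron-sulfur protein, at 86.9% with an adjusted p of 0.0566. UQCRH, the most abundant gene of the complex, measured 247.6, 269.7 and 300.3 FPKM in siRNF31, against 308.1, 277.4 and 246.9 FPKM in siControl, which overlapped almost fully. Its intronless copy UQCRHL was listed below 1 FPKM in every library. The ratio of UQCRQ to UQCRB, both small subunits, was 0.874, 0.867 and 0.860 in siRNF31, against 1.89, 1.81 and 1.92 in siControl. It too was picked after the values were seen and mainly carries the fall of UQCRQ.

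CYC1, the catalytic cytochrome c1 of the complex, fell further than any gene taken by the symbol rule. It measured 93.7, 98.4 and 108.2 FPKM in siRNF31, against 281.9, 258.4 and 244.4 FPKM in siControl, leaving 38.3% (log2 fold change -1.38, SE 0.0763, adjusted p = 1.43e-06). CYCS, cytochrome c itself, rose. It measured 94.96, 94.8 and 99.1 FPKM in siRNF31, against 63.6, 60.1 and 56.3 FPKM in siControl (log2 fold change 0.68, SE 0.0603, adjusted p = 2.23e-05). Neither gene's groups overlapped. In siRNF31 the transcripts of the electron donor CYC1 and of its acceptor CYCS were thus at similar FPKM, whereas in siControl CYC1 was far above CYCS.

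UQCRQ and UQCR11 both carried the ETS motif in their promoters, shown here because they were the largest falls of complex III among the members. The windows are chr5:132866392-132866691, plus strand, for UQCRQ and chr19:1605413-1605712, minus strand, for UQCR11 (GRCh38.p14). The ETS match, in capitals, begins 54 bases before the start in UQCRQ and 117 bases before it in UQCR11, and the shorter capitals in UQCR11 are 3 SP1 matches.
UQCRQ: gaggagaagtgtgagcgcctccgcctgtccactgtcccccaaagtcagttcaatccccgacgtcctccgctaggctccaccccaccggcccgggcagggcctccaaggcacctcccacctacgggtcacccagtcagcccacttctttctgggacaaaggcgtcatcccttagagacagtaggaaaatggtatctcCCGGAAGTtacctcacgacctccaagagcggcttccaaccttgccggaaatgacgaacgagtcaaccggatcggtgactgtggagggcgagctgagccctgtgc
UQCR11: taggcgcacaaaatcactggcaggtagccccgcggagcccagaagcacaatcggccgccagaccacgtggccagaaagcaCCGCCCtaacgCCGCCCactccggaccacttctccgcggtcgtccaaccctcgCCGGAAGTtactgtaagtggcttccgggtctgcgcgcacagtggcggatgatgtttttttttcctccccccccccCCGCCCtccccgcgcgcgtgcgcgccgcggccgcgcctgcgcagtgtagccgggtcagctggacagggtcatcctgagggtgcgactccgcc

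Complex IV, cytochrome c oxidase, had 3 genes lower, 1 higher and 9 not called among 13 tested, with a median log2 fold change of -0.09. The 23.1% that fell and the 7.69% that rose compare with 36.5% and 26.6% of all tested genes. COX5B measured 74.7, 69.9 and 89.7 FPKM in siRNF31, against 119.2, 99.7 and 92.9 FPKM in siControl. The groups came close but did not overlap (log2 fold change -0.41, SE 0.114, adjusted p = 0.0132), and the call was lost without siRNF31 replicate 2. COX7B measured 27.3, 28.8 and 30.2 FPKM in siRNF31, against 39.9, 33.3 and 33.1 FPKM in siControl (log2 fold change -0.29, adjusted p = 0.0131). COX7C had 92.7, 94.0 and 118.3 FPKM in siRNF31, against 137.1, 122.7 and 115.6 FPKM in siControl, and its groups overlapped through siRNF31 replicate 3. Its call (log2 fold change -0.30, adjusted p = 0.0321) was lost in 7 of 15 settings.

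COX8A, the most abundant gene of the complex, measured 308.1, 313.9 and 359.8 FPKM in siRNF31, against 358.7, 321.8 and 302.8 FPKM in siControl. The means were 327 ± 28.3 FPKM in siRNF31 and 328 ± 28.4 FPKM in siControl (SD, n = 3 each), with a 95% interval of the log2 fold change of -0.20 to 0.20. COX4I1, needed for assembly of the enzyme, measured 285.8, 284.1 and 325.6 FPKM in siRNF31, against 364.6, 299.8 and 292.7 FPKM in siControl. It overlapped between groups and was not called, and the same held for COX6A1, with 209.0, 216.3 and 242.1 FPKM in siRNF31, against 269.0, 230.5 and 220.9 FPKM in siControl. NDUFA4 measured 75.7, 74.96 and 85.9 FPKM in siRNF31, against 84.6, 73.8 and 69.3 FPKM in siControl. COX7A2L, a factor of supercomplex assembly, measured 96.2, 99.1 and 106.5 FPKM in siRNF31, against 105.4, 98.6 and 89.9 FPKM in siControl. Neither was called, with 95% intervals of -0.14 to 0.26 and -0.13 to 0.20.

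The isoforms of complex IV that belong to heart, muscle, lung or testis were nearly silent with the exception of COX7A1. COX4I2 and COX6A2 were each listed above 0 in a single siRNF31 library, at 0.08 and 0.15 FPKM, and at 0 in all siControl libraries. COX8C had 0.10, 0.20 and 0 FPKM in siRNF31 and was listed at 0 throughout siControl. COX6B2 measured 0.59, 0.62 and 0.25 FPKM in siRNF31, against 0.36, 0.18 and 0.39 FPKM in siControl, beside 159.5, 152.3 and 182.1 FPKM in siRNF31 and 203.7, 189.4 and 166.6 FPKM in siControl for its common form COX6B1. NDUFA4L2, a paralog known to respond to hypoxia, stayed below 1 FPKM in every library and took 0.965% of the NDUFA4 and NDUFA4L2 sum in siRNF31 and 0.910% in siControl.

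COX7A1, the isoform known from heart and skeletal muscle, was present and rose. It measured 16.97, 19.5 and 18.0 FPKM in siRNF31, against 15.99, 14.9 and 14.6 FPKM in siControl (log2 fold change 0.24, SE 0.0678, adjusted p = 0.0126). The groups did not overlap, and the call was lost without siRNF31 replicate 2 or without siControl replicate 2. Its common counterpart COX7A2 measured 139.9, 149.5 and 163.5 FPKM in siRNF31, against 176.4, 157.8 and 140.6 FPKM in siControl. COX7A1 thus made up 10.8% ± 0.823 of the pair in siRNF31 and 8.78% ± 0.563 in siControl (SD, n = 3 each). The muscle markers CKM and ACTC1 averaged 0.015 and 0.282 FPKM.

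Complex V, the ATP synthase, had 8 genes lower, 1 higher and 10 not called among 19 tested. The 42.1% that fell and the 5.26% that rose compare with 36.5% and 26.6% of all tested genes, and differences between the parts of the enzyme were not tested. In the F1 head and central stalk, where ATP is made, 4 of 5 genes (80%) fell. ATP5F1A, the alpha subunit, measured 173.5, 170.3 and 175.6 FPKM in siRNF31, against 243.6, 238.1 and 233.4 FPKM in siControl (log2 fold change -0.46, SE 0.0521, adjusted p = 9.22e-05). ATP5F1B, the catalytic beta subunit and the most abundant gene of the complex, measured 339.0, 342.3 and 355.9 FPKM in siRNF31, against 439.7, 413.5 and 403.7 FPKM in siControl (log2 fold change -0.28, adjusted p = 0.00394). Both pairs of groups were clearly apart, with 72.7% of the alpha mean and 82.5% of the beta mean left. The ratio of ATP5F1A to ATP5F1B was 0.512, 0.498 and 0.494 in siRNF31, against 0.554, 0.576 and 0.578 in siControl.

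The stalk subunits of F1 followed. ATP5F1C, the gamma subunit, measured 85.9, 85.2 and 96.6 FPKM in siRNF31, against 133.3, 119.6 and 113.3 FPKM in siControl (log2 fold change -0.45, adjusted p = 0.00112). ATP5F1D, the delta subunit, measured 57.1, 55.6 and 67.1 FPKM in siRNF31, against 93.4, 90.8 and 84.6 FPKM in siControl (log2 fold change -0.58, SE 0.0801, adjusted p = 0.0003). Neither overlapped. ATP5F1E, the epsilon subunit, was at 90.6% of siControl and was not called (adjusted p = 0.163).

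The c ring, which turns with the proton flow, is coded by 3 genes whose mature products are the same. ATP5MC3 measured 57.6, 61.6 and 64.7 FPKM in siRNF31, against 88.8, 83.2 and 77.2 FPKM in siControl (log2 fold change -0.43, SE 0.07, adjusted p = 0.000729). ATP5MC1 fell as well (log2 fold change -0.36, adjusted p = 0.00842), while ATP5MC2 was not called (95% interval -0.25 to 0.08). ATP5MC2 therefore supplied 50.2%, 49.97% and 50.3% of the summed c ring FPKM in siRNF31, against 43.9%, 44.9% and 45.6% in siControl, a shift that was larger than the spread between libraries of a group.

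The peripheral stalk, which holds the head still, and the small membrane subunits gave few calls. ATP5PD fell to 86.5% (adjusted p = 0.0225, lost in 6 of 15 settings, among them without replicate 1 or 2 of either group), and ATP5PB, ATP5PF and ATP5PO were not called. ATP5MG, subunit g, was the gene that rose, with 80.6, 84.5 and 84.4 FPKM in siRNF31, against 76.5, 69.0 and 61.9 FPKM in siControl (log2 fold change 0.27, SE 0.078, adjusted p = 0.0157). The groups did not overlap, but the call was lost without siRNF31 replicate 2 or without siControl replicate 2. Subunit ATP5MJ fell (log2 fold change -0.33, adjusted p = 0.0189). ATP5IF1, the inhibitor of ATP hydrolysis, measured 77.3, 81.4 and 91.0 FPKM in siRNF31, against 111.2, 103.0 and 82.6 FPKM in siControl. Its groups overlapped through siControl replicate 3, and it was not called (log2 fold change -0.24, 95% interval -0.49 to 0.01, adjusted p = 0.091). ATP5MF-PTCD1, a readthrough locus of ATP5MF, and ATP5MGL, a copy of ATP5MG, share reads with those genes and stood at 1.23 FPKM or below in every library.

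**Figure D3:**
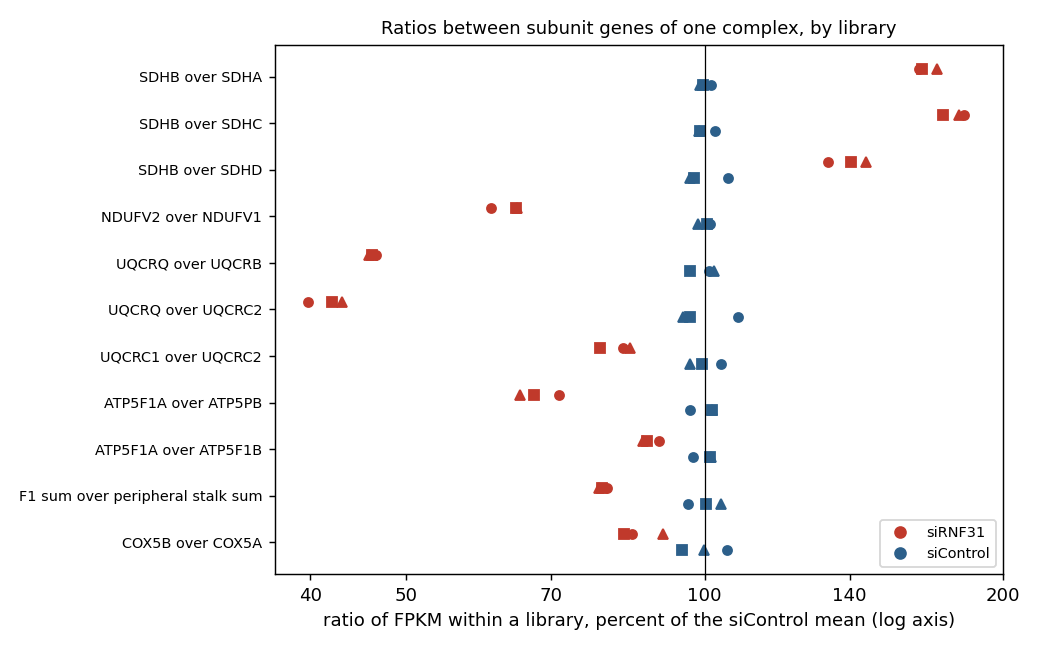
Ratios of FPKM between genes, or sums of genes, of the same complex within each library, as percent of the siControl mean on a log axis. Red symbols are siRNF31 libraries and blue symbols siControl libraries, with circles, squares and triangles for replicates 1, 2 and 3; the groups do not overlap for any of the 11 ratios, which were chosen after the gene values were seen.

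Across the 11 ratios plotted, the groups never overlapped, although the genes in them were picked with their values known. With 3 libraries a group the exact two-sided permutation p of each was 0.1, the smallest this design allows. The F1 sum over the peripheral stalk sum was 1.57, 1.55 and 1.54 in siRNF31, against 1.89, 1.97 and 2.04 in siControl. The F1 sum fell to 77.6% of siControl while the peripheral stalk sum stood at 98.1%.

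Summed over a complex, the transcript levels were lower by mean but mostly overlapped. Complex II was the exception: its sums were 243.5, 243.6 and 257.7 FPKM in siRNF31, against 310.6, 299.2 and 289.3 FPKM in siControl, or 82.8% of the mean. Complex I stood at 89.4%, complex III at 87.4%, complex IV at 93.3% and complex V at 88.8% of siControl, each with siRNF31 replicate 3 above siControl replicate 3. Without siRNF31 replicate 3 and siControl replicate 1 these values were 89.4%, 87.6%, 93.9% and 90.0%, and complex II stood at 82.8%. As a share of all FPKM in a library, the 88 genes took 1.66% ± 0.0648 in siRNF31 and 1.88% ± 0.0843 in siControl (SD, n = 3 each), with no overlap.

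**Figure D4:**
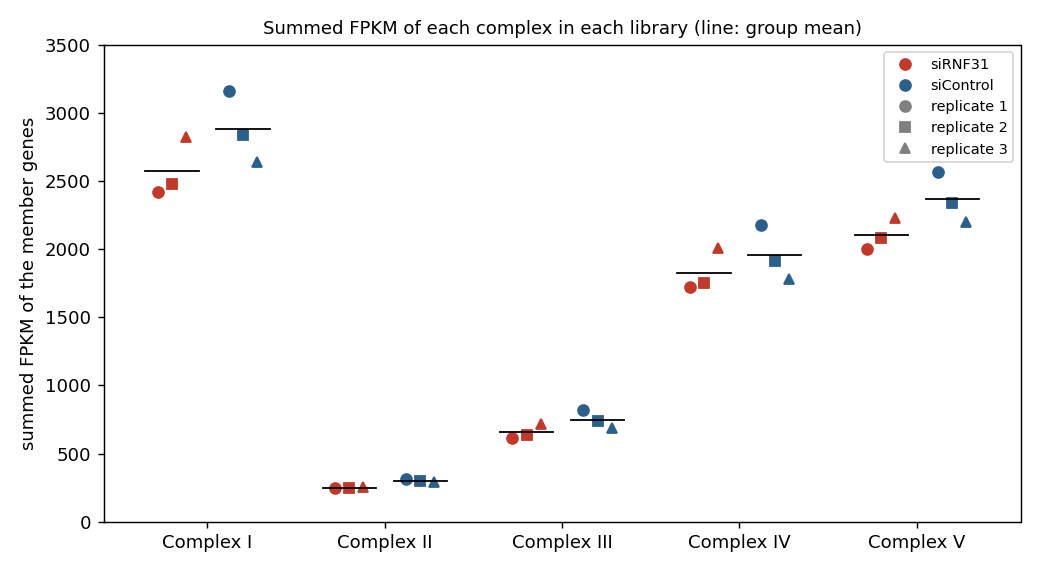
Summed FPKM of the member genes of each complex in each library, siRNF31 (red) left of siControl (blue), with a line at each group mean on a linear axis from 0. Circles, squares and triangles are replicates 1, 2 and 3; the groups separate for complex II and overlap for the other 4 complexes, with the siRNF31 triangle and the siControl circle highest in their groups.

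The assembly factors, which build the complexes and leave them, changed in both directions. Over the factors of all 5 complexes, 22 of 58 tested genes fell and 11 rose, with a median log2 fold change of -0.14. The 37.9% that fell was near the 36.5% of all tested genes, and the 19% that rose compares with 26.6%. For complex I, 9 of 17 fell and 2 rose (52.9% and 11.8%). TMEM126B, part of the intermediate that builds the membrane arm, was at 38.9% of siControl (log2 fold change -1.32, adjusted p = 2.97e-06). For complex III, 1 of 6 fell, TTC19 to 51.9%, and 1 rose, UQCC1 to 133.7%, a share of 16.7% each. For complex IV, 10 of 27 fell and 5 rose (37% and 18.5%). COX10, which makes heme O, was at 30.6%, COX20 at 48.9%, and the copper chaperone COX17 rose to 146.9%. COX10 measured 2.86, 2.63 and 2.74 FPKM in siRNF31, against 8.45, 8.79 and 9.65 FPKM in siControl. For complex II, SDHAF2, which places flavin in SDHA, fell to 82.7%, and SDHAF1 and SDHAF3, which serve the iron-sulfur clusters of SDHB, rose to 125.0% and 141.9%.

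Among the other mitochondrial lists, 7 of 16 tested genes of the tricarboxylic acid cycle and pyruvate dehydrogenase fell and 4 rose, shares of 43.8% and 25% that lie near the 36.5% and 26.6% of all tested genes. PDHB and IDH3G fell to 59.9% and 61.0%, and OGDH rose to 128.5%. In coenzyme Q synthesis 3 of 13 fell and 3 rose (23.1% each), and the subunits of its chain-making enzyme parted, with PDSS1 at 60.7% and PDSS2 at 169.2% of siControl. In protein import 14 of 24 fell and 2 rose (58.3% and 8.33%): TIMM17B fell to 35.4% and TOMM20 to 47.6%, while TOMM22 rose to 189.5%. In the cristae list 1 of 7 fell (14.3%), APOO, and for complex V assembly 1 of 4 fell and 1 rose (25% each).

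Mitochondrial ribosomal protein genes, which serve the translation of the subunits encoded in mitochondrial DNA, also fell more often than they rose. Of 78 tested, 35 fell and 3 rose (44.9% and 3.85%, against 36.5% and 26.6% of all tested genes), with a median log2 fold change of -0.21, and MRPL39 fell most, to 43.8%. Of the cytosolic ribosomal protein genes, 1 of 77 fell and 13 rose (1.3% and 16.9%), with a median of 0.10, although they shared the shift of siRNF31 replicate 3 and siControl replicate 1. Their summed FPKM stood at 108.6% of siControl and overlapped between groups.

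**Figure D5:**
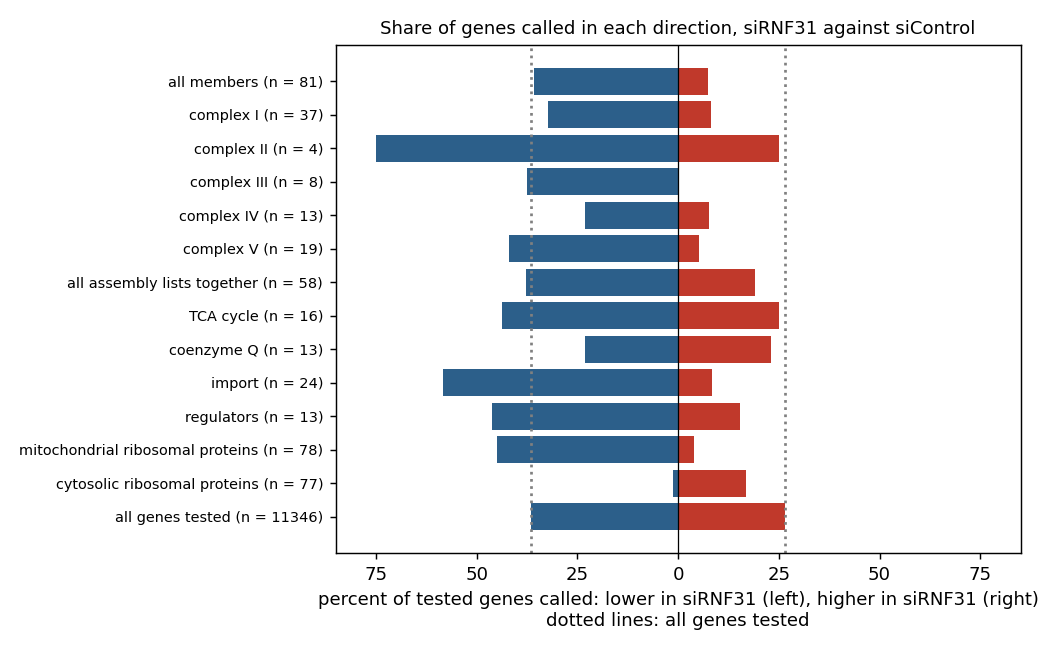
Percent of tested genes called lower (blue, left) and higher (red, right) in siRNF31 against siControl, for the subunit genes, each complex, companion lists and all genes tested; n is the number tested, and dotted lines mark all genes tested, 36.5% lower and 26.6% higher. Subunit genes lie near the lower line, at 35.8%, and well short of the higher line, at 7.41%.

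Of 13 tested regulators of nuclear and mitochondrial respiratory genes, 6 fell and 2 rose, so that 61.5% were called, near the 63.1% of all tested genes. NRF1 was not called, with 5.30, 4.94 and 5.63 FPKM in siRNF31, against 5.50, 5.40 and 5.81 FPKM in siControl (95% interval of the log2 fold change -0.22 to 0.09). GABPA and GABPB1, the GABP subunits, were not called either, with intervals of -0.09 to 0.47 and -0.23 to 0.03. YY1 fell, with 12.4, 12.5 and 12.6 FPKM in siRNF31, against 14.6, 14.8 and 15.01 FPKM in siControl (adjusted p = 0.00434), and so did ESRRA (adjusted p = 0.00363). TFAM and POLRMT, which package and transcribe mitochondrial DNA, fell to 69.3% and 72.2%, and the coactivator gene PPRC1 rose to 146.7%. PPARGC1A was at or below 0.11 FPKM in every library.

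Promoters from the RefSeq table (GRCh38.p14), 250 bases before to 50 after each start, were found for 71 of the 88 genes and searched on both strands for 4 motifs. NRF1 was searched as GCGCATGC, ETS as CCGGAAGT, YY1 as AAGATGGC and SP1 as GGGCGG. In no member promoter did the letters of different motifs overlap. NRF1 was present in 18.3% of the member promoters, against 5.85% of the promoters of tested genes, and YY1 in 15.5%, against 5.82%. ETS was present in 14.1%, against 9.69%, and SP1 in 60.6%, against 71.2%. Among members that fell, 7 of 24 promoters held the ETS motif. None of the 4 found for members that rose held it, and it was in 3 of 39 for members not called. YY1 was in 3 of 24 promoters of members that fell and in 2 of 4 of those that rose, NDUFS4 and SDHB, whose sequences are given above. It was in 6 of 39 for members not called. SP1 was in 19 of 24 that fell, 2 of 4 that rose and 21 of 39 not called. For NRF1 these counts were 5 of 24, 2 of 4 and 6 of 39. Differences between these groups of members were not tested. These matches describe letters in a window and not binding.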

How the data were processed

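Values were FPKM deposited by the authors in 1 table per library, per the file headers; libraries followed BGISEQ-500 protocols, per the labels' protocols. Which aligner, quantification program, build or annotation was used, and the depth, are points not given in the sources used here. Values were transformed to log2(FPKM + 1), genes below 1 FPKM in more than 3 of the 6 libraries were dropped, and groups were compared by limma 3.58.1 in R 4.3.3 (intensity trend, robust moderation). Two-sided p-values received Benjamini-Hochberg adjustment across the 11346 genes left, with calls at 0.05; fold changes on this scale understate changes of low genes. Percentages of siControl are ratios of mean FPKM. The members, lists and rules were chosen with earlier results of these data known, so neither their direction nor their counts are independent support. Values in every library are given for up to 4 called members per direction and complex with the largest changes and mean FPKM of at least 2, the most abundant member, the isoform pairs and ATP5IF1, with other members by counts and ranges; companion lists give up to 2 called genes per direction. NDUFS1, NDUFS7 and other members named outside this rule, and all ratios, were chosen after their values were seen. Results for some genes are not reported here. Sequences came from RefSeq (GRCh38.p14). The steps were tested on simulated data. Python 3.11.15 with pandas 2.3.3 and matplotlib 3.10.9 was used for tables and plots.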

Additional observations from a re-analysis of the deposited data

How the results depend on the processing

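Over 15 alternative settings (pseudocount, filters, scalings, no trend, the replicate block, each library left out, and 1 pair of libraries left out that was chosen after seeing the data), no fold change of a tested subunit gene reversed a call; of the gene and setting combinations, 1078 kept their side of the threshold, 78 gained a call and 58 lost one. Calls held in all 15 settings for 18 of the 29 subunit genes that fell, among them UQCRQ, NDUFV2, SDHA, SDHC, UQCR11 and ATP5F1A, and for 2 of the 6 that rose, among them NDUFS4. The subunit genes called lower, 29 of 81 in the main analysis, numbered 47 with scaling to a common sum and from 20 to 41 with a library left out. Of all tested genes, 36.5% were lower in the main analysis, 38% with a common sum and from 31.8% to 36.4% with a library left out. The 6 called higher numbered 12 with quantile normalization, from 2 (without siControl replicate 2) to 9 with a library left out, 3 without siRNF31 replicate 2, and 10 without siRNF31 replicate 3 and siControl replicate 1 together. The companion lists held 39 genes called higher, which numbered 63 with quantile normalization, from 25 without siControl replicate 2 to 66 without siControl replicate 1, and 77 without the pair. Over all genes the median log2 fold change, -0.06, was 0.0 with no filter, -0.02 with median of ratios scaling, -0.01 with quantile normalization and -0.08 with a common sum, while that of the subunit genes ran from -0.24 to -0.11. The cause of these shifts was not tested. Replicate numbers were not treated as pairs in the main analysis. Deviations of same-numbered libraries from their group means correlated at -0.568, 0.124 and -0.629, and those of siRNF31 replicate 3 and siControl replicate 1 at 0.675. Such values cannot show whether same-numbered libraries were made together, since the 2 libraries that stood apart weigh on them. With the replicate number as a block, 20 subunit genes were lower and 3 higher. In that setting 24 companion genes were higher and 5977 of all genes were called, against 7163 without it. With a library left out, calls were also lost for NDUFB2, NDUFB10, NDUFC1, NDUFS5, COX7B and ATP5MJ, each of them without siRNF31 replicate 1 or 2, and for NDUFB2 and NDUFC1 also without siControl replicate 1 or 2. A lone library never made up a group. Depth is unknown, so no counting interval limits the low values.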

Other observations

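The subunit genes differed from other genes in the size of their transcripts. In GENCODE release 29 the 81 tested subunit genes had a median transcript length of 932 bases, against 3058 bases for all tested genes, and a median 3′ untranslated region of 193 bases, against 974 bases. Their GC content was similar, with medians of 49.1% and 49.0%. Among the 81 genes, the log2 fold change between siRNF31 and siControl correlated weakly with transcript length (Spearman's rho across genes -0.09), GC content (-0.03) and mean expression (0.02); genes of the same libraries are not independent replicates.

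The 3′ untranslated regions were also searched for 4 sequences of 7 bases that an earlier search of these data had tied to lower values in siRNF31. That link was unequal. GCTACAC was in 18.3% of the 487 genes called lower by at least 2-fold, against 4.84% of other tested genes. CTACACA was in 20.3%, against 9.23%, TGCTACA in 14.2%, against 10.8%, and AAGTTTA in 21.6%, against 19.9%. Among the subunit genes the counts were as follows. GCTACAC was present in 2 subunit genes (ATP5IF1 and NDUFS1), CTACACA in 5 and TGCTACA in 6, and AAGTTTA in 8. At least 1 of these was present in 13 of the 81 subunit genes, or 16%, against 32.3% of all tested genes. These shares were not adjusted for the shorter 3′ untranslated regions of the subunit genes (medians of 193 and 974 bases), so they do not show depletion. By call, at least 1 of the sequences was present in 4 of 29 genes that fell, 0 of 6 that rose and 9 of 46 not called. The median 3′ untranslated regions of these groups were 275, 171 and 192.5 bases, for which the counts were not adjusted. UQCRQ, NDUFV2, SDHA, UQCR11 and ATP5F1D carried none of the 4 sequences, and SDHC carried CTACACA and AAGTTTA.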
